A study of Mus musculus with 8 samples.

Results

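Messages of 10 crypt stem and progenitor markers were followed in tuft cells sorted from the mouse small intestine. The markers were Lgr5, Olfm4, Prom1, Lrig1, Axin2, Ephb2, Ephb3, Cd44, Myb and Slc12a2, taken by name from the 53655 named genes of a table of raw read counts. All 10 were in the table, and 9 passed the filter on low counts and were tested; Lrig1 did not pass it. All libraries came from naïve animals of the genotype Il25-RFP/+;Chat-GFP(Tg+), in which a red reporter marks Il25 and a green transgenic reporter marks Chat, the gene of the enzyme that makes acetylcholine. Cells that were negative for CD45, positive for EPCAM and positive for Il25-RFP were split by the green signal into Chat-neg and Chat-pos tuft cells, with 4 libraries each. The labels give neither the age or sex of the animals nor which animal gave which library, so p-values measure the spread between libraries, which may in part be technical. Both groups carry both reporters, and the Chat-pos gate reads transgenic GFP rather than Chat itself.

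The intestinal epithelium is renewed from crypts. Stem cells at the crypt base sit between Paneth cells in a field of Wnt signals, divide, and give rise to progenitors that settle into absorptive or secretory fates as they move toward the villus. Tuft cells are chemosensory epithelial cells that arise in the crypt and are carried along the same path. The question put to the data was whether Chat-neg libraries hold more of these messages than Chat-pos libraries.

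The answer from single genes was that no difference passed the test. Of 9 markers tested, 0 were called in either direction by the quasi-likelihood test of edgeR (Benjamini-Hochberg adjusted p under 0.05 over 8919 genes). Among all genes tested 6.49% were called, 3.62% higher and 2.87% lower in Chat-pos. Cd44 was the 1 marker with an unadjusted p under 0.05, a level that 20.8% of all genes reached. DESeq2 gave no adjusted p for Axin2, Cd44 and Ephb3 and called 0 of the other 6, and limma-voom called 0 of the 9. In each of these tests Cd44 alone had an unadjusted p under 0.05. The fitted difference was negative for 6 markers and positive for 3, with a median of -0.24 on the log2 scale beside -0.02 for all genes tested. In bulk libraries fewer cells of a type and less RNA per cell cannot be told apart.

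The libraries differed in depth, and this sets the precision. Counts in named genes ran from 87642 in Chat-neg replicate 1 to 1176880 in Chat-neg replicate 3, and from 1757401 to 2541955 in Chat-pos. Levels are given as CPM, counts scaled to a library total of 1000000 over named genes, as mean ± SD with n = 4 libraries a group. The 10 markers together rested on 36 counts in Chat-neg replicate 1 and on 445 to 2958 elsewhere. The 1734 genes of olfactory and vomeronasal receptors, taken as silent here without a test, gave the background to expect over the exons of the markers: 5.48 of the 36 counts in Chat-neg replicate 1, and between 5.39 and 8.91 counts elsewhere. Scaled to CPM, the receptor reads came to 404 to 4476 in Chat-neg and 165 to 320 in Chat-pos. Between the gates Chat itself rose from 112 ± 21.4 CPM in Chat-neg to 315 ± 32.5 CPM in Chat-pos (edgeR adjusted p = 6.28e-05), and Il25 from 43.6 ± 27.1 to 113 ± 21.0 CPM (edgeR adjusted p = 0.00884). Epcam, of the sort, stood at 1862 ± 283 and 2432 ± 177 CPM (edgeR adjusted p = 0.289). The 8 tuft cell markers summed to between 7777 and 13307 CPM in Chat-neg and between 17516 and 18087 CPM in Chat-pos.

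Olfm4 and Cd44 carry the main patterns, the widest spread between libraries and the smallest p, so their promoter windows are shown. They come from RefSeq on GRCm38.p6 and run from 250 bases before to 50 after the transcript start, 5′ to 3′ on the gene's strand. Capitals mark TGGGAA or its reverse complement TTCCCA, the core that RBPJ, the DNA-binding partner of Notch, is known to recognise. Olfm4 is known in mouse as a target of Notch, the pathway that keeps crypt cells in the stem and absorptive state.
Olfm4, chr14:80000052-80000351, plus strand: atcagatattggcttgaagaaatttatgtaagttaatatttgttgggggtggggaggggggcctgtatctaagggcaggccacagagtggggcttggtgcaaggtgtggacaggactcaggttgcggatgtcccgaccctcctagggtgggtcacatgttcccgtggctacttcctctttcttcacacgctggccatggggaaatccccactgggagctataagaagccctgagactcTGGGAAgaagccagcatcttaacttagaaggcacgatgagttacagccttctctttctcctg
Cd44, chr2:102901616-102901915, minus strand: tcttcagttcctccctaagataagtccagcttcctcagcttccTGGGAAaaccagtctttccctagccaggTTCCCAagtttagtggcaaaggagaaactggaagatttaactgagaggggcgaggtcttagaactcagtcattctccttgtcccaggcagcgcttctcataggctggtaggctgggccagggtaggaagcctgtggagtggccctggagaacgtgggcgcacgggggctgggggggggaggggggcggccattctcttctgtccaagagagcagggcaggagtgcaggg
The Olfm4 window held 1 match, which began 12 bases before the start, and the Cd44 window held 2. Among 9 windows found for 8 of the 10 markers, 3 held this core (Olfm4, Cd44 and Prom1), as did 25.6% of all 32851 windows. The TCF/LEF cores of the Wnt pathway were searched as CTTTGA and CTTTGT on both strands, and each was found in 1 marker window, Prom1 and Myb respectively, against 16.0% and 18.7% of all windows. These matches are a description of letters in short windows.

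Lgr5, a receptor for R-spondins that marks the dividing stem cells of the crypt base, was read in every library. Its level was 55.4, 59.4, 34.5 and 36.7 CPM in Chat-neg replicates 1 to 4, on 5, 49, 42 and 24 counts. In Chat-pos it was 51.5, 66.1, 60.3 and 44.1 CPM, on 87, 155, 134 and 110 counts. The groups overlapped, and in Chat-neg the highest library stood 1.72-fold above the lowest. The fitted log2 difference of 0.32 ± 0.26 (SE, edgeR adjusted p = 0.524) had a 95% interval from -0.20 to 0.85, so these libraries are compatible with Lgr5 in Chat-pos between 0.871 and 1.80 times its level in Chat-neg. In Chat-neg replicate 1 the 5 counts gave a 95% exact binomial (Clopper-Pearson) interval from 18.0 to 129 CPM. Intervals of this kind cover the counting error of reads only and leave out the spread between libraries. The reads carry no molecular identifiers, so copies of a molecule cannot be told apart and the intervals may be too narrow.

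Olfm4, a secreted glycoprotein used as a robust marker of crypt base stem cells, behaved differently. Chat-neg replicates 1 to 4 gave 44.3, 135, 16.4 and 688 CPM, on 4, 111, 20 and 450 counts. Chat-pos replicates 1 to 4 gave 19.5, 401, 870 and 8.41 CPM, on 33, 941, 1933 and 21 counts. High libraries occurred in both groups, Chat-neg replicate 4 and Chat-pos replicates 2 and 3, and the groups overlapped fully. The level varied 41.8-fold within Chat-neg and 103-fold within Chat-pos, far more than between the group means of 221 ± 315 and 325 ± 407 CPM. The log2 difference was 0.47 ± 1.66 (edgeR adjusted p = 0.919), and its 95% interval from -3.54 to 4.48 leaves the group difference undetermined. Without Chat-pos replicates 2 and 3 the difference was -4.00 ± 1.92 (edgeR adjusted p = 0.403), without Chat-pos replicate 3 alone -0.69, and without Chat-neg replicate 4 2.26.

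Prom1, which encodes the membrane protein prominin 1 found on stem cells and other epithelial cells, was steady by contrast. It stood at 144, 186, 178 and 235 CPM in Chat-neg and at 203, 181, 200 and 217 CPM in Chat-pos, on 13 to 541 counts. Group means were 186 ± 37.6 and 200.3 ± 14.6 CPM, and the groups overlapped. Its difference of 0.07 ± 0.20 had the narrowest interval of the 9 markers, from -0.33 to 0.48 (edgeR adjusted p = 0.888). This interval allows a Chat-pos level between 0.794 and 1.39 times that of Chat-neg.

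**Figure D1:**
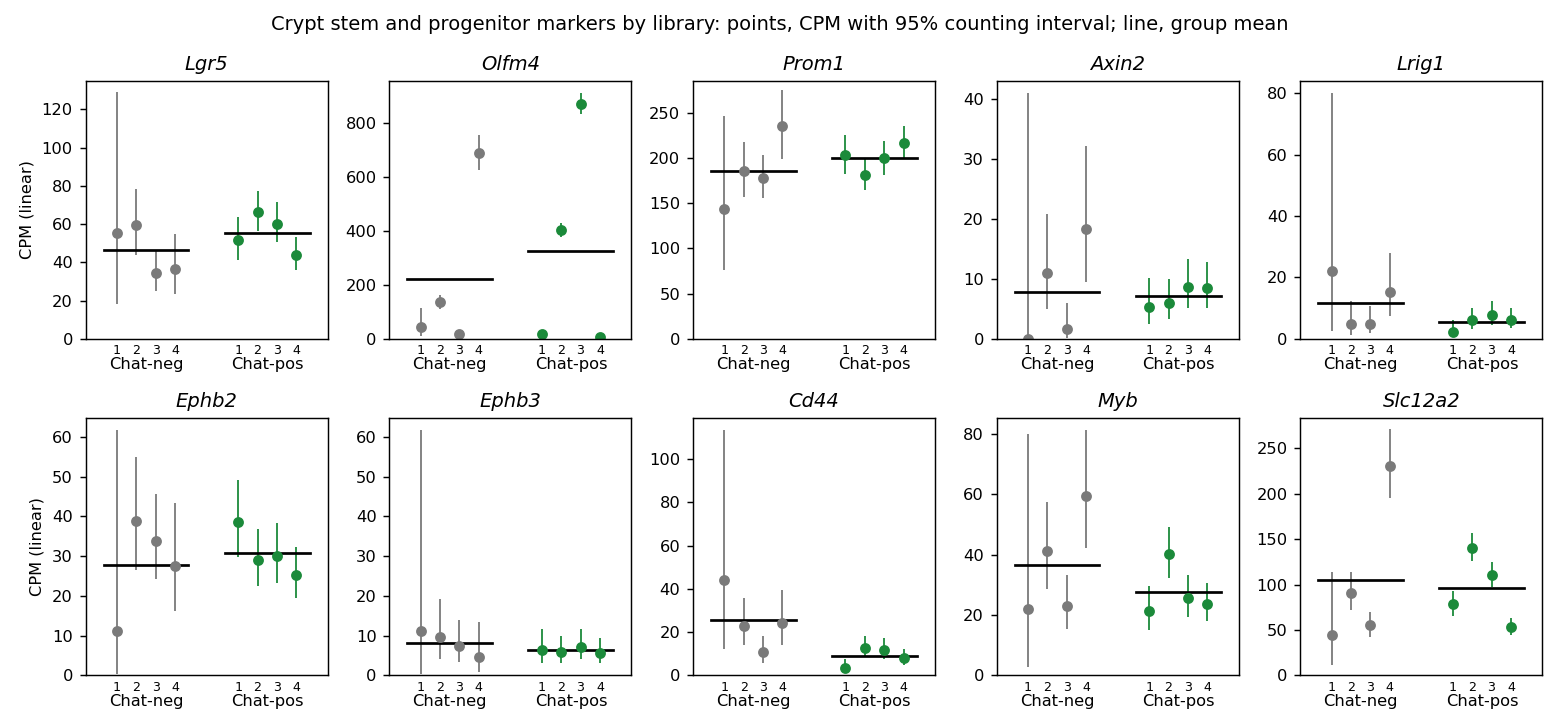
Level of each of the 10 crypt markers in CPM (linear axes) in the 4 Chat-neg (grey) and 4 Chat-pos (green) libraries, numbered by replicate; bars are 95% Clopper-Pearson counting intervals and black lines group means. Olfm4 splits the libraries within each group, from 16.4 to 688 CPM and from 8.41 to 870 CPM, while Prom1 stays between 144 and 235 CPM.

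Lrig1, an inhibitor of ErbB receptor signalling that also marks stem cells, was too low for the test. It was read 2, 4, 6 and 10 times in Chat-neg and 4, 14, 17 and 15 times in Chat-pos. These counts correspond to 22.2, 4.85, 4.93 and 15.3 CPM in Chat-neg, and to 2.37, 5.97, 7.65 and 6.01 CPM in Chat-pos, with overlap. With no filter on low counts its log2 difference was -0.46 ± 0.63 (edgeR adjusted p = 0.654).

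Axin2, a scaffold that restrains the Wnt pathway and is itself induced by it, was also near the limit of detection. Chat-neg replicates gave 0, 9, 2 and 12 counts and Chat-pos replicates 9, 14, 19 and 21 counts. The 0 counts in Chat-neg replicate 1 allow a level of up to 33.2 CPM by a limit of 3 counts (the exact interval in the plot of levels reaches 40.9 CPM), which is above the level in every other library. Elsewhere Chat-neg spanned 1.64 to 18.3 CPM and Chat-pos 5.33 to 8.55 CPM, so the Chat-pos values lay inside the Chat-neg range. The log2 difference was -0.32 ± 0.60 (edgeR adjusted p = 0.817), and it was 0.41 without Chat-neg replicate 4, the library with the highest level.

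The Eph receptors, which sort crypt cells by position through repulsion from ephrins on the villus side, did not separate the gates. Ephb2 stood at 11.1, 38.8, 33.7 and 27.5 CPM in Chat-neg and at 38.5, 29.0, 30.1 and 25.2 CPM in Chat-pos. The 11.1 CPM of Chat-neg replicate 1 rested on 1 count, where 0.893 background counts were expected; the other 7 libraries lay between 25.2 and 38.8 CPM and overlapped. The log2 difference was -0.06 ± 0.29, with an interval from -0.64 to 0.52 (edgeR adjusted p = 0.939). Ephb3, which is known to hold Paneth cells at the crypt base, was lower, at 4.58 to 11.1 CPM in Chat-neg and 5.61 to 7.20 CPM in Chat-pos, on 1 to 16 counts. Its groups overlapped too, and its difference was -0.26 ± 0.54 (edgeR adjusted p = 0.843).

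Cd44, a hyaluronan receptor and Wnt target of the crypt that leukocytes also carry, came closest to a difference. Its level was 44.3, 23.0, 10.7 and 24.4 CPM in Chat-neg, on 4, 19, 13 and 16 counts. In Chat-pos it was 3.55, 12.8, 11.7 and 8.01 CPM, on 6, 30, 26 and 20 counts. The lowest Chat-neg library, replicate 3, lay below Chat-pos replicates 2 and 3, so the groups overlapped. Means were 25.6 ± 13.9 and 9.02 ± 4.18 CPM, a log2 difference of -1.19 ± 0.47 with an interval from -2.15 to -0.24, and the edgeR adjusted p of 0.129 did not pass. Over 17 of 18 other settings that gave one, the adjusted p ran from 0.0816 to 0.323, and DESeq2 gave Cd44 none. Leaving out Chat-neg replicate 1, the shallowest library, gave -1.03 ± 0.46, and leaving out Chat-pos replicates 2 and 3 gave -1.69 ± 0.59.

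Leukocyte markers are given beside Cd44, since leukocytes carry it too. The 12 markers summed to 99.7, 67.9, 90.4 and 55.0 CPM in Chat-neg and to 10.1, 67.4, 21.1 and 26.8 CPM in Chat-pos, and these sums overlapped between the groups. Of the 12, 2 passed the filter and 1 was called lower, where 2.87% of all genes were. Of all 12, between 3 and 7 were at 0 in each library, and none was at 0 in all. Cd3g, a T cell receptor component, stood at 30.4 ± 12.8 against 5.81 ± 9.13 CPM, which did not pass (-2.21 ± 1.20, edgeR adjusted p = 0.374). Without Chat-pos replicate 2 Cd3g was called lower (-4.23 ± 0.78, edgeR adjusted p = 0.00551). Cd52, a leukocyte surface peptide, was called lower in Chat-pos (-2.28 ± 0.62, edgeR adjusted p = 0.0227), but it no longer passed with no filter, nor when any 1 of Chat-neg replicates 2 to 4 or Chat-pos replicates 1, 3 or 4 was left out. Their part in the Cd44 values was not tested. Ptprc, which encodes the CD45 used to exclude leukocytes and is also read in tuft cells, went the other way, from 266 ± 24.6 CPM in Chat-neg to 534 ± 81.3 CPM in Chat-pos (edgeR adjusted p = 0.00313).

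Myb, a transcription factor needed by crypt progenitors, was at 22.2, 41.2, 23.0 and 59.6 CPM in Chat-neg and at 21.3, 40.1, 25.6 and 23.6 CPM in Chat-pos. Chat-neg replicate 4 was the highest of all 8 libraries and the groups overlapped. The log2 difference of -0.47 ± 0.31 (edgeR adjusted p = 0.421) shrank to -0.12 without that library. Slc12a2, the sodium, potassium and chloride cotransporter NKCC1 that loads crypt cells with chloride for secretion, had the same highest library. It stood at 44.3, 91.0, 55.1 and 231 CPM in Chat-neg and at 78.8, 141, 110 and 53.7 CPM in Chat-pos. Its difference was -0.24 ± 0.56 (edgeR adjusted p = 0.866), and 0.51 ± 0.31 without Chat-neg replicate 4 (edgeR adjusted p = 0.441).

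**Figure D2:**
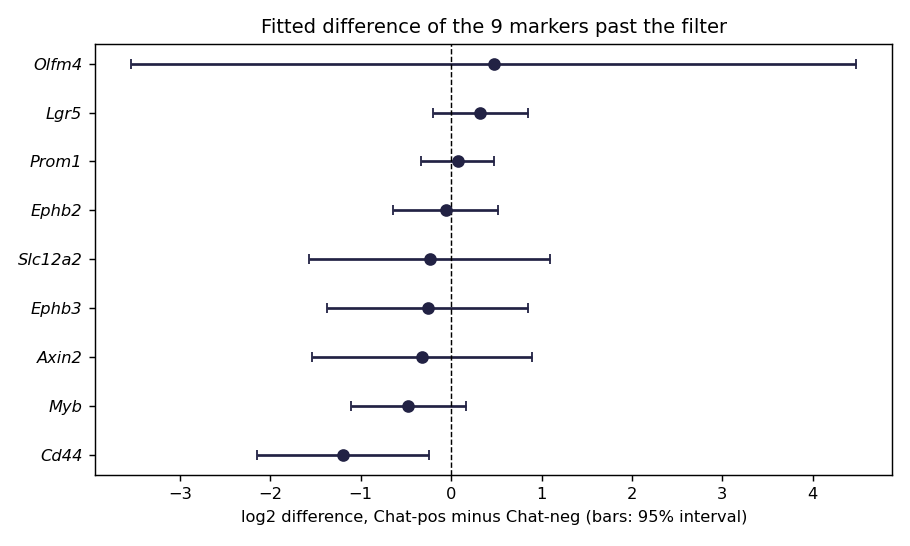
Fitted log2 difference, Chat-pos minus Chat-neg, of the 9 markers past the filter, with 95% intervals as bars. Only the interval of Cd44, from -2.15 to -0.24, lies to one side of 0 before adjustment; that of Olfm4 spans -3.54 to 4.48.

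The markers thus fell apart by how much libraries of a group differed. The biological coefficient of variation is the spread left within groups after counting noise, here the gene-wise estimate of edgeR. This estimate is drawn toward the trend for genes of like level, so it is not the measured spread of a gene alone. For Olfm4 it was 144%, which placed this gene at the 99.9th percentile of all 8919 genes. Slc12a2 followed at 54.0% (97.8th percentile) and Axin2 at 41.3% (94.0th percentile), then Cd44 at 35.8% and Ephb3 at 33.5%. Lgr5, Ephb2 and Prom1 stood at 22.4%, 22.4% and 22.5%, near the 20.2nd, 20.4th and 21.9th percentiles, and Myb at 26.4% was close to the middle. These percentiles are over genes of all levels, and genes of low CPM tended to spread more. Mean levels over the 8 libraries were 7.40 CPM for Axin2, 7.26 for Ephb3, 17.3 for Cd44, 51.0 for Lgr5 and 193 for Prom1. No comparison with genes of like level was made.

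**Figure D3:**
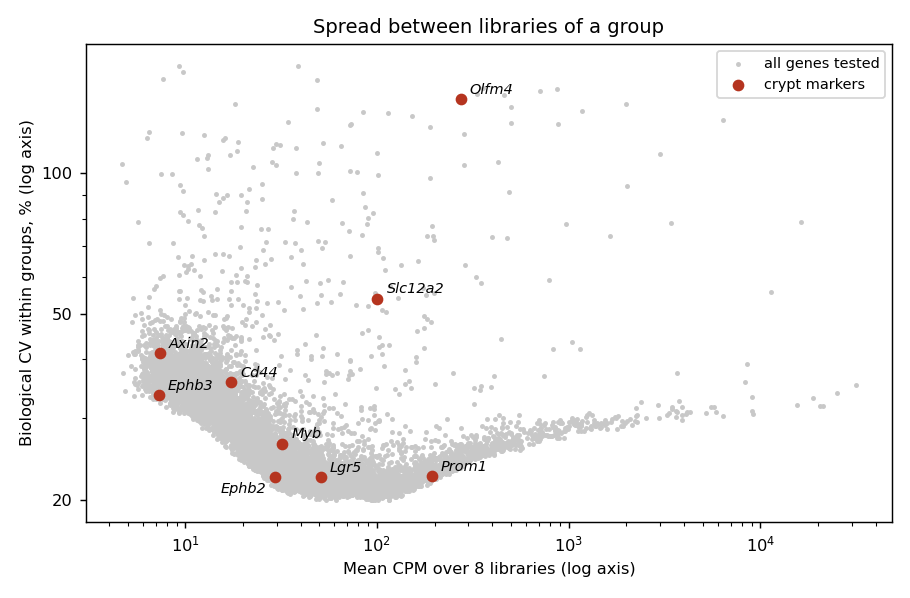
Biological coefficient of variation within groups (edgeR estimate, drawn toward the trend with level) against mean CPM over 8 libraries. Both axes are log, with all 8919 genes tested in grey and the 9 tested crypt markers in red. Olfm4 at 144% and Slc12a2 at 54.0% lie high among all genes, while Lgr5 and Prom1 lie at 22.4% and 22.5%.

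Olfm4 and Lgr5, often read side by side as stem cell markers, differed in how far they varied across libraries. Both were highest in replicates 2 and 3 and lowest in replicate 4 within Chat-pos, whereas Chat-neg replicate 4 was highest for Olfm4 and near the lowest for Lgr5. Olfm4 counts were 18.8 times those of Lgr5 in Chat-neg replicate 4 and 14.4 times in Chat-pos replicate 3, yet 0.191 times in Chat-pos replicate 4. Olfm4 made up 51.3%, 45.1% and 65.3% of all counts of the 10 markers in Chat-neg replicate 4 and Chat-pos replicates 2 and 3, and 2.10% to 22.5% in the other libraries. The summed level of the 10 markers followed it, at 399, 599, 366 and 1340 CPM in Chat-neg and 431, 889, 1331 and 399.9 CPM in Chat-pos. With Olfm4 set aside the sum was 355, 465, 349 and 652 CPM against 411, 488, 461 and 391 CPM, and Chat-neg replicate 4 alone stood above the rest.

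The libraries rich in Olfm4 differed in what else they held. Paneth cell markers, 10 in number, summed to 56661 and 30973 CPM in Chat-pos replicates 2 and 3 and to at most 3381 CPM in the other libraries. Defa24, an alpha-defensin of Paneth granules, gave 31072 and 15933 CPM there and 254 to 2019 CPM elsewhere, and Defa30 gave 10621 and 4199 CPM against at most 662 CPM. Chat-neg replicate 4, with Olfm4 at 688 CPM, had only 1132 CPM of Paneth markers. In that library the 28 proliferation genes summed to 1244 CPM, against 173 to 532 CPM in the other 7, and Hes1, a Notch target, reached 273 CPM, against 27.4 to 124 CPM. Chgb, an enteroendocrine granule protein, was at 328 CPM in Chat-neg replicate 4 and at most 8.49 CPM elsewhere. In Chat-neg replicate 4 all 9 enteroendocrine markers summed to 1338 CPM, with 4 of them at 0. The sums were 554 to 899 CPM in the other Chat-neg libraries and 1159 to 1835 CPM in Chat-pos. Sct, the secretin gene, made up most of each sum, with 923 CPM in Chat-neg replicate 4. Its level was 543 to 892 CPM in the other Chat-neg libraries and 1149 to 1800 CPM in Chat-pos. The sums thus mainly follow Sct and cannot show whether the other markers set Chat-neg replicate 4 apart. Whether cells other than tuft cells gave the Olfm4 reads was not tested.

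**Figure D4:**
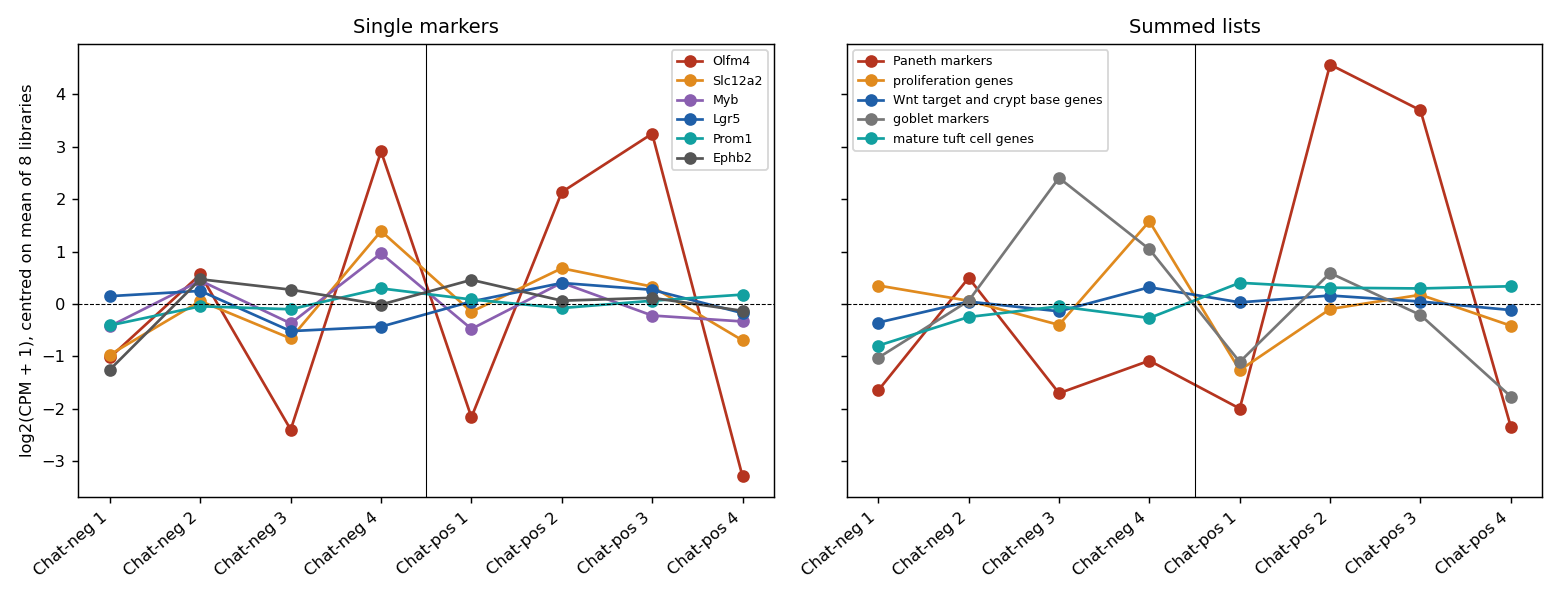
Level of 6 single crypt markers (left) and of 5 summed gene lists (right) in each library, as log2(CPM + 1) centred on its mean over the 8 libraries; lines join libraries only to guide the eye, and the vertical line parts Chat-neg from Chat-pos. Olfm4 peaks in Chat-neg replicate 4 and Chat-pos replicates 2 and 3, Paneth markers in the latter pair alone, and proliferation genes in Chat-neg replicate 4, while Lgr5 and Prom1 stay within 1 unit of 0.

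Compared per kilobase of exon, the mean level over the 8 libraries was highest for Olfm4, at 92.1 CPM per kb, and Prom1, at 26.9 CPM per kb. Slc12a2 followed at 9.21, Lgr5 at 4.97, Myb at 3.59, Cd44 at 2.56 and Ephb2 at 2.32 CPM per kb. Lrig1 (1.55), Axin2 (1.34) and Ephb3 (1.09 CPM per kb) were lowest. The order was not firm between neighbours, whose ranges over libraries overlapped in each case; Olfm4 spanned 2.84 to 294 CPM per kb and ranked between 1 and 4. Prom1 spanned 20.1 to 32.8 CPM per kb and ranked 1 or 2 among the 10 in every library.

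Other genes of the crypt programme were no clearer. Of 20 further Wnt target and crypt base genes, 11 passed the filter and 0 were called in either direction, with a median log2 difference of -0.16 and 2 at an unadjusted p under 0.05 (0 called by edgeR, DESeq2 and limma-voom alike). Those with the smallest p were Cdk6, a G1 kinase, at -1.41 ± 0.57 (edgeR adjusted p = 0.15), Ascl2, a stem cell transcription factor, at 1.07 ± 0.50 (0.218) and Ccnd1, cyclin D1, at -1.16 ± 0.73 (0.4). Ascl2 thus stood higher in Chat-pos, at 21.4 ± 9.31 against 8.68 ± 8.69 CPM, while Cdk6 stood lower, at 6.81 ± 5.06 against 19.7 ± 11.1 CPM. Neither passed the test, and both overlapped between the groups. Without Chat-pos replicates 2 and 3, Cdk6 was called lower (-2.76 ± 0.73, edgeR adjusted p = 0.0276).

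Among 14 Notch and secretory progenitor genes, 3 passed the filter and 0 were called, with 1 at an unadjusted p under 0.05. Hes1 was at 77.5, 59.4, 124 and 273 CPM in Chat-neg and 56.9, 44.8, 27.4 and 51.3 CPM in Chat-pos. Its groups did not overlap, as was true of 14.0% of all genes tested. The log2 difference was -1.64 ± 0.49 (edgeR adjusted p = 0.0996), and Hes1 passed in 5 other settings, among them DESeq2 and the fit without Chat-neg replicate 4 (-0.99 ± 0.29, edgeR adjusted p = 0.0443). Dtx4, a Notch regulator, at -0.77 ± 0.57, and the Notch ligand Dll1, at 0.43 ± 0.48, did not pass. Hey1 was at 0 in every library.

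Reserve and regenerative stem cell genes had 3 of 7 members past the filter, and 1 of them rose, where 3.62% of all genes tested did. Hopx, a homeodomain protein used to mark slow-cycling stem cells, rose from 517 ± 162 CPM in Chat-neg to 1015 ± 98.7 CPM in Chat-pos (0.95 ± 0.22, edgeR adjusted p = 0.00844). The groups did not overlap for Hopx, as for 14.0% of all genes tested. Leaving out Chat-neg replicate 2 ended the call of Hopx (edgeR adjusted p = 0.0638). Bmi1, a Polycomb protein, stood at 0.81 ± 0.35 without passing (edgeR adjusted p = 0.176).

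Proliferation genes had 20 of 28 members past the filter. In Chat-pos 1 was called lower and 0 higher, where 2.87% and 3.62% of all genes tested were. Of the 20, 18 had a negative difference, with a median of -1.0. Among all 8919 genes tested 4591 had a negative difference. Cdca3, a trigger of mitotic entry, fell from 38.4 ± 22.5 to 8.95 ± 4.28 CPM (-1.97 ± 0.45, edgeR adjusted p = 0.0092). It did not pass once Chat-neg replicate 4 was left out (edgeR adjusted p = 0.135). Mcm5, of the replicative helicase, at -1.47 ± 0.52, and Tk1, thymidine kinase, at -1.47 ± 0.57, did not pass. Leaving out Chat-neg replicate 3 brought the number called lower to 4, leaving out Chat-pos replicates 2 and 3 to 3, and leaving out Chat-neg replicate 4 to 0. The crypt markers, with a median of -0.24, lay nearer 0 than this list, a difference between lists that has no test.

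Genes of the villus and of mature tuft cells were read beside these, where 3.62% of all genes tested were called higher. Of 8 tested among 12 BMP response and villus genes, 3 rose, the BMP targets Id3 (1.05 ± 0.22, edgeR adjusted p = 0.00366), Id2 (0.84 ± 0.21, 0.0139) and Id1 (0.89 ± 0.23, 0.0153), and the median was 0.83. Id1 and Id2 lost their calls without Chat-neg replicate 2, and Id1 also without Chat-pos replicate 1. All 24 mature tuft cell genes passed the filter, with 9 higher, 1 lower and a median of 0.46. The largest rises were those of Gnat3, the taste G protein alpha subunit (2.24 ± 0.22, edgeR adjusted p = 1.68e-07), and of the receptor for succinate, Sucnr1 (1.78 ± 0.23, 1.86e-05). Sh2d7, an adaptor, rose by 1.08 ± 0.20 (0.00119). The number higher was 5 without Chat-neg replicate 2, and Gng13, a G protein gamma subunit and the 1 gene called lower (-0.79), lost its call in 11 of 18 other settings. Each such list shares its libraries and its scaling with the crypt markers, so their differences are not separate evidence on them.

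**Figure D5:**
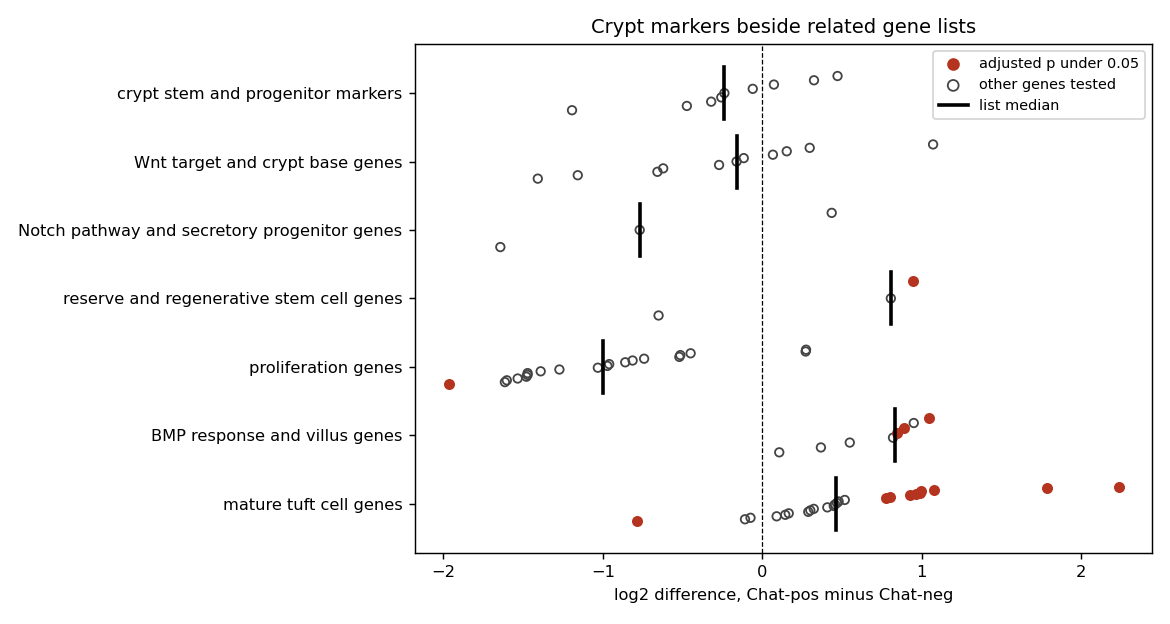
Log2 difference, Chat-pos minus Chat-neg, of each tested gene of the crypt markers and 6 related lists; filled points passed an edgeR adjusted p of 0.05 and black bars are list medians. The crypt markers centre on -0.24 with 0 of 9 called, proliferation genes on -1.0 with 1 of 20 called, and mature tuft cell genes on 0.46 with 10 of 24 called.

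For the 3 markers with the smallest p, the genes of at least 20 CPM with the most similar profile over the 8 libraries were listed, by the root mean square difference of centred log2(CPM + 1) among 5593 genes. Lgr5 was most like Fbxw9 (0.119), Cox15 (0.130) and Tnip1 (0.159). Myb was most like Metap1 (0.180), Hnrnpdl (0.218) and Vdr, the vitamin D receptor (0.232). Cd44 had more distant neighbours, Gle1 (0.409), Nsun2 (0.425) and Dnmt1, the maintenance DNA methyltransferase (0.438). Genes under 20 CPM were left out, though Cd44 itself averaged 17.3 CPM. The distance is also not scaled for range, and Cd44 ran from 3.55 to 44.3 CPM against 34.5 to 66.1 CPM for Lgr5. The larger distances therefore cannot be read as a trait of Cd44. These distances are a description over libraries that share depth and scaling.

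On GRCm38 the markers lie on 9 chromosomes. In the GENCODE M21 annotation Lgr5 spans 115450311 to 115587780 on the minus strand of chromosome 10, and Olfm4 79984081 to 80023139 on the plus strand of chromosome 14, where the RefSeq start used above lies inside that span. Cd44 spans 102811141 to 102901665 on the minus strand of chromosome 2 and Prom1 43993620 to 44102032 on the minus strand of chromosome 5. Axin2 spans 108920349 to 108950783 on the plus strand of chromosome 11, and Lrig1 94604529 to 94700158 on the minus strand of chromosome 6. Ephb2 spans 136647539 to 136835988 on the minus strand of chromosome 4, and Ephb3 21204755 to 21223305 on the plus strand of chromosome 16. Myb spans 21124935 to 21160984 on the minus strand of chromosome 10, and Slc12a2 57878678 to 57946821 on the plus strand of chromosome 18. Exons of Olfm4, Myb, Prom1, Axin2 and Lrig1 overlap another annotated gene over 2.58% to 6.26% of their length, and reads there cannot be assigned to either gene. For Myb, Prom1, Axin2 and Lrig1 the other gene lies on the opposite strand, which the kit does not mark. For Olfm4 it lies on the same strand, so strand would not part the reads. Lgr5, Cd44, Ephb2, Ephb3 and Slc12a2 have no such overlap.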

How the data were processed

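Epithelial cells were released from small intestine with DTT and EDTA, sorted into SMARTer v4 lysis reagents, and made into Nextera XT libraries for single-read sequencing, per the labels' protocols. The authors deposited raw read counts by gene symbol. Reads were placed on GRCm38, per the submitters' processing notes. Which aligner, counter and annotation were used is not given in the sources used here. Of 53806 rows, 36 had no gene name and were left out. They held 67.8% to 88.4% of the counts of a Chat-neg library and 58.6% to 64.6% of a Chat-pos library. This share thus differed between the groups without overlap. Counts of 229 rows sharing 114 symbols were summed.

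Counts were tested with edgeR 4.0.16 (R 4.3.3): filterByExpr, TMM, robust quasi-likelihood fit on group, Benjamini-Hochberg adjustment over all 8919 genes. Standard errors were derived from each F statistic. CPM used the TMM-scaled sizes of the tested genes, times 1 constant that made them sum to the named totals. Exon lengths came from GENCODE M21. The limit for 0 counts was 3 counts per library. All replicate pairs differed by more than counting noise. On simulated counts, in which 8633 genes were tested, edgeR recovered 5.33% of genes changed 1.5-fold, 28.6% changed 2-fold and 89.1% changed 4-fold. Of 76 calls 3 were false. The simulation gave each gene the spread usual for its level and pooled genes of all levels. Its shares therefore should not be applied to Olfm4 and Slc12a2, whose spread lay at the 99.9th and 97.8th percentiles of all genes tested. The shares were not worked out for the low markers alone.

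The members and lists were chosen with earlier results of these data known. The text names all 10 markers, 4 sort genes and the 2 highest genes of each marker list. From each other list it names the 3 genes of smallest p (2 from lists under 8 genes). It also names 3 like-profiled genes for each of 3 markers. Of these, goblet, enterocyte and stromal markers and the 2 highest tuft cell markers are given only below. Hey1, Gng13 and Clca1 were named after their values were seen. DESeq2 1.42.0 and limma 3.58.1 served as alternatives, beside other scalings, filters, a replicate block, background subtraction and leaving out libraries.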

Additional observations from a re-analysis of the deposited data

Results flagged for a closer look

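Within each group of 4 libraries the highest or lowest value was set against the gap to its nearest neighbour. Of 136 such groups 9 held a far library, and chance alone gives about 1 in 20 for independent, normally distributed values. The groups here share libraries and genes, so that share is a rough guide. None of the 9 was a crypt marker: Olfm4, with 2 high libraries in Chat-pos, was not among them.

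Among markers of other epithelial cells, Defa30 was highest in Chat-neg replicate 2 at 662 CPM (others 88.6 to 162), and so were all Paneth markers summed, at 3381 CPM (others 736 to 1132, within Chat-neg). Zg16, a goblet granule lectin, reached 2577 CPM in Chat-neg replicate 3 (others 133 to 324). Chgb stood at 328 CPM in Chat-neg replicate 4. Col1a1, a stromal collagen, was at 11.1 CPM in Chat-neg replicate 1 and 0.801 CPM in Chat-pos replicate 4, which are 1 and 2 counts. Sh2d6, a tuft cell adaptor, was lowest in Chat-pos replicate 1 at 7146 CPM (others 7837 to 7907). Of the genes with profiles like a crypt marker, Dnmt1 was lowest in Chat-neg replicate 3 at 17.3 CPM and Tnip1 highest in Chat-pos replicate 2 at 31.6 CPM.

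Rows without a gene name held 58.6% of counts in Chat-pos replicate 4, the lowest share, and 88.4% in Chat-neg replicate 1, the highest. The share was at least 67.8% in Chat-neg and at most 64.6% in Chat-pos. These rows cannot be assigned to genes and enter no value here.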

How the results depend on the processing

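No crypt marker was called in any of the 18 other settings, which tested 7 to 10 of them, except that DESeq2 gave an adjusted p for only 6. Directions held in all 18 for Lgr5 (0.20 to 0.58), Cd44 (-1.69 to -0.94) and Myb (-0.71 to -0.12). Ephb3 kept its direction in the 13 settings that tested it. Other log2 differences turned. With no filter Ephb2 was 0.14 and Hnrnpdl 0.049; with background reads subtracted Ephb2 was 0.064; with total count scaling Prom1 was -0.020; with limma-voom Axin2 was 0.21. Without Chat-pos replicates 2 and 3, Ephb2 was 0.10, Olfm4 -4.00, Defa24 -1.57 and Defa30 -1.88. With 1 library left out, Olfm4 ran from -0.69 to 2.26, Ephb2 from -0.18 to 0.10, Axin2 from -0.81 to 0.41, Slc12a2 from -0.48 to 0.51 and Hnrnpdl from -0.38 to 0.25. The causes were not tested.

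Over all genes, 323 higher and 256 lower became 138 to 360 and 110 to 309 when 1 library was left out, the lowest of both without Chat-neg replicate 2. The lower count was 143 with no filter, 402 with limma-voom and 86 without Chat-pos replicates 2 and 3. Total count scaling gave 217 higher and 330 lower and moved the all-gene median to -0.11. The labels do not say that a replicate number marks an animal, so the numbers were not taken as pairs. Same-numbered libraries had correlations of 0.053, 0.033, -0.023 and -0.010, and the other pairs -0.076 to 0.099. Values near 0 in shallow libraries cannot exclude pairing. The replicate block gave 290 higher and 230 lower. With this block Cd44 was at -1.15 (edgeR adjusted p = 0.2), and Hes1 passed at -1.52 (edgeR adjusted p = 0.026).

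Depth limits the low markers most: Axin2, Lrig1 and Ephb3 rested on 0 to 21 counts a library, and Chat-neg replicate 1 gave at most 13 counts for any marker.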

Other observations

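Markers of the remaining cell types were also read. Goblet markers had 1 of 7 members called lower in Chat-pos, Clca1 (-3.06), where 2.87% of all genes tested were called lower. The most abundant, Zg16 and Tff3, stood at -2.58 ± 1.03 (edgeR adjusted p = 0.227) and -2.01 ± 0.78 (edgeR adjusted p = 0.214). Enterocyte markers had 0 of 10 called by edgeR, with 1 at an unadjusted p under 0.05, and summed to 20905 to 43912 CPM in Chat-neg and 32309 to 52875 CPM in Chat-pos. Fabp1, a fatty acid binding protein, stood at 0.35 ± 0.27, and Apoa1, an apolipoprotein, at 0.66 ± 0.24 (edgeR adjusted p = 0.0944; called by DESeq2, adjusted p = 0.0392, and in edgeR with background reads subtracted, adjusted p = 0.0474). Sct, which encodes secretin, was the 1 enteroendocrine marker past the filter and rose (0.85 ± 0.22, edgeR adjusted p = 0.0155), as did 3.62% of all genes tested. The call of Sct was lost with the replicate block (edgeR adjusted p = 0.0514), without Chat-neg replicate 2 (0.115) and without Chat-pos replicate 1 (0.0685). Stromal markers summed to at most 12.2 CPM in any library, and Pecam1 among them stood at 2.65 ± 2.68 against 1.90 ± 0.96 CPM, untested. Of the 8 tuft cell markers, all also in the mature tuft cell list, 3 were called higher, where 3.62% of all genes tested were. The 2 most abundant were Sh2d6 (0.93 ± 0.21, edgeR adjusted p = 0.00721) and Rgs13 (0.99 ± 0.22, 0.00608). Both lost their calls without Chat-neg replicate 2 (0.0563 and 0.0515).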
